A study of Mus musculus with 32 samples.

Results

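Spinal cords of untreated transgenic mice at 155 days of age were compared with those of untreated wild-type (WT) littermates of the same age. The G93A mice carry a human SOD1 transgene with the glycine-to-alanine change that gives the mice their name, driven by the human gene's own regulatory region, in the line B6-Tg(SOD1-G93A)1Gur/J on C57BL/6J. Every column of the count table named for untreated mice of this age was used, which gave 4 G93A mice (numbers 9, 10, 11 and 12) and 4 WT mice (numbers 1, 2, 3 and 4), or 8 of the 32 mice of the series. The other mice were given the compound OKN-007, were sampled at the earlier age, or both; the labels call that age 90 days and the study's text 95 days. Each library was made from polyadenylated RNA of about 25 mg of cord and holds all of its cell types. Neither the labels nor the methods give a segment of the cord for these samples, the mice were predominantly female, and they were killed before the end stage of the disease. In whole tissue, fewer cells of a type and less RNA per cell cannot be told apart, and this holds for every level below.

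Mutant SOD1 harms motor neurons, the large cholinergic cells of the ventral horn whose axons drive muscle, and their loss causes the paralysis of amyotrophic lateral sclerosis (ALS). Microglia, the resident phagocytes of the cord, are known to leave their resting state in this model through the lipid-sensing receptor Trem2 and its adaptor Tyrobp, and to take up debris into lysosomes. Astrocytes respond by enlarging their cytoskeleton and by releasing proteins of the acute phase.

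The 8 libraries held 23259870 to 30138257 reads on genes, so that 3 counts in the smallest of them correspond to 0.129 CPM, a limit that covers counting error only. CPM is the count of a gene relative to the library size, scaled by edgeR's TMM factors. Values per mouse are given in the order WT 1, 2, 3 and 4, then G93A 9, 10, 11 and 12. Mouse Sod1, the gene whose human form is the transgene, was measured at 252, 339, 239.9 and 268 CPM in WT mice and at 267, 243, 279 and 239.8 CPM in G93A mice. The groups overlapped, with a log2 fold change of -0.10 (SE 0.10, adjusted p = 0.458). WT 1 and WT 3 were closer to each other than any other pair within a group, with a chi-square of 3.57 per gene between their counts against 13.1 to 58.2 for the other pairs, where sampling noise alone gives about 1, and they were kept as separate mice. The human transgene itself was not analysed here, so the genotype labels have no check from the targeted gene. Xist, which females express, lay at 359, 252, 357 and 269 CPM in WT mice and 301, 379, 294 and 278 CPM in G93A mice; no mouse was near 0.

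Marker lists of other tissues gave few calls, with Alb high in a single mouse and Avil higher in every G93A mouse. Of the 5 liver genes tested none passed the threshold, but Alb, the serum albumin of hepatocytes, was at 12.5, 0.0863, 3.42 and 0.0649 CPM in WT and 0.314, 0.0413, 4.2 and 143 CPM in G93A mice, far highest in G93A 12. Of the 4 muscle genes and 5 red blood cell genes tested, none passed. The red blood cell genes summed to 70.6 to 151 CPM in WT and 47.9 to 97.7 CPM in G93A mice. Avil, a sensory ganglion gene, was higher in G93A mice (0.376 ± 0.0962 CPM in WT and 2.93 ± 0.718 CPM in G93A mice, SD, n = 4 each), while P2rx3, another gene of those neurons, was at 1.08, 0.863, 1.03 and 0.649 CPM in WT and 0.59, 0.496, 0.453 and 0.801 CPM in G93A mice. Hox genes that mark the caudal end of the cord (Hox9 to Hox13 paralogs) differed with the groups: their mean log2(CPM + 1) was 2.90, 3.63, 3.22 and 3.88 in WT mice and 1.51, 1.5, 2.77 and 2.79 in G93A mice, and 9 of 14 passed as lower, or 5 without G93A 10. Over all mice left out in turn the count was 5 to 13, and with 1 surrogate variable it was 11 (median -2.04 in place of -1.39). Hoxb13 was at 0, 4.19, 1.82 and 3.47 CPM in WT mice and 0, 0.0826, 0.0412 and 0.0667 CPM in G93A mice, so WT 1 sat with the G93A mice. Because these genes mark position along the cord, counts that follow are also given with the caudal Hox level as a covariate wherever it moved the rises or the falls of a list by over 1.5 times and by at least 2 genes, with the median under it, since fewer calls need not mean smaller changes; the part of cord position in the results was not tested otherwise.

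Of 18675 genes tested, 7378 (39.5%) differed between G93A and WT mice at an adjusted p under 0.05 (edgeR quasi-likelihood F test, two-sided, Benjamini-Hochberg over all genes tested). Of the tested genes, 3981 (21.3%) were higher in G93A mice and 3397 (18.2%) were lower. The increases reached larger sizes than the decreases. At a log2 fold change of at least 1 there were 1511 higher genes (8.09% of those tested) and 206 lower genes (1.1%), at least 3 was reached by 252 higher and 6 lower genes, and at least 5 by 49 and 4. The median log2 fold change was 0.74 among the genes called higher and -0.45 among those called lower, while over all genes tested it was 0.00. All 4 G93A mice lay above all 4 WT mice in 3376 genes (18.1%) and below them in 2643 (14.2%). With the caudal Hox level as a covariate 4547 genes passed, 2826 higher and 1721 lower, and without G93A 9 and 10, the pair lowest in caudal Hox genes, 5823 passed.

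The direction of the calls went with the level of the gene. Among genes with a mean under 1 CPM, 416 were higher and 144 lower, and among genes over 100 CPM, 401 were higher and 806 lower, so that 55.8% of those abundant genes passed. Genes called higher took 14.9, 15.8, 14.7 and 15.02% of the CPM in WT mice and 24.1, 28.5, 31.3 and 22.6% in G93A mice. Genes called lower took 35.5 to 38.6% in WT mice and 24.9 to 30.3% in G93A mice. The direction of both shifts was fixed by the choice of these genes. Apoe alone, the lipid carrier of astrocytes and activated microglia, went from between 0.262% and 0.378% of all counts in WT mice to between 1.08% and 2.38% in G93A mice.

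**Figure D1:**
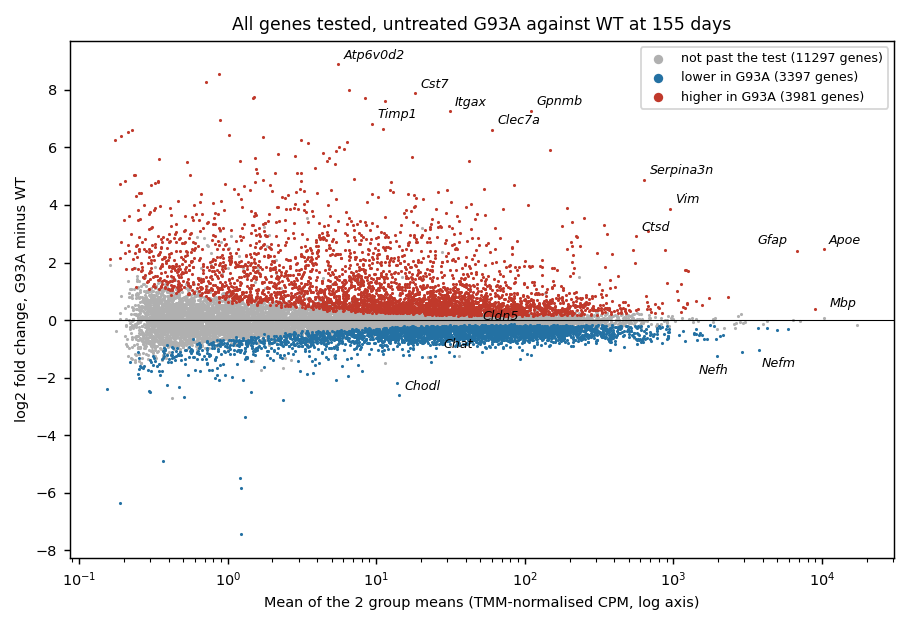
Each point is 1 of the 18675 genes tested, with the mean of the WT and G93A group means on the x axis (CPM, log scale) and its log2 fold change, G93A minus WT, on the y axis; colours mark genes called higher (3981) and lower (3397) in G93A mice. The cloud reaches much further up than down: 252 genes rose by at least 3 on the log2 scale and 6 fell by as much.

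Among called genes with non-overlapping groups and at least 1 CPM in a group, the 15 with the largest fold change included 8 that no WT mouse held at more than 3 counts. Their folds are given as lower bounds against 3 counts in the smallest WT library. Mmp12, the macrophage elastase, was at least 130.4-fold higher, and Tgm1, a transglutaminase that crosslinks proteins, at least 101-fold. Atp6v0d2, the proton pump subunit of osteoclasts and macrophages, was at 0.0373, 0.0432, 0 and 0 CPM in WT and 11.2, 12.2, 17.6 and 3.34 CPM in G93A mice, at least 85.9-fold higher, and Mcoln3, a calcium channel of endosomes, at least 23.4-fold. Cox6a2, the muscle and heart form of a cytochrome oxidase subunit, had no count in any WT mouse and 1.1, 2.19, 2.35 and 1.33 CPM in G93A mice (at least 13.5-fold). Olfr111, an olfactory receptor gene, was likewise at 0 in every WT mouse and at least 11.1-fold higher. Cd200r4 (at least 22.8-fold) and Serpina3m (at least 13.6-fold) belong to families of near-identical copies, so reads may be split between paralogs. Serpina3m was at 0.354, 0.702, 5.56 and 0.40 CPM in G93A mice, so its mean rests on G93A 11.

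The 6 called genes lower by at least 3 on the log2 scale overlapped between groups, with WT 1 the lowest WT mouse in each: Hoxc12, Hoxc13, Hoxb13, Hoxa13, the noncoding Hotair of the same clusters and 1 gene without a symbol, named after their values were seen. Under the limits on overlap and level given above, the 15 genes with the deepest fall were led by Chodl, a marker of fast motor neurons described with the neurons below. Lgr6, a receptor for R-spondins, was at 11, 10.3, 10.7 and 9.02 CPM in WT and 3.22, 2.48, 1.32 and 3.67 CPM in G93A mice. Gli1, the transcription factor that reads out hedgehog signalling, was at 5.41, 6.43, 4.71 and 7.04 CPM in WT and 2.36, 0.537, 1.28 and 2.4 CPM in G93A mice. Both fell in every G93A mouse below every WT mouse, by 1.93 and 1.82 on the log2 scale. Pcdha1 (-1.76) and Pcdha5 (-1.63), clustered protocadherins that neurons use to tell their own branches apart, share their last exons with neighbouring genes and are uncertain. The others were Aqp6 (-2.09), Kirrel2 (-1.76), Fam227b (-1.88), Mmp9 and 6 genes with clone or predicted names.

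The gene lists below hold 1257 genes, of which 1179 passed the filter on low counts. A gene near 0 in WT mice passes that filter only through the mice in which it is high, so counts within a list describe the list, to be read beside the 21.3% and 18.2% of all genes.

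Microglial genes rose, with a larger median in the disease-associated list than in the list of the resting cell. The 18 genes of the disease-associated list, drawn from phagocytic microglia, were all called higher, with a median log2 fold change of 3.02. Cst7, the cathepsin inhibitor cystatin F, was at 0.186, 0.216, 0.19 and 0.0324 CPM in WT mice and 28, 37.6, 54.7 and 24.6 CPM in G93A mice, a log2 fold change of 7.87 (SE 0.33, adjusted p = 3.99e-12). Clec7a, the beta-glucan receptor dectin-1, was at 1.45, 1.21, 1.75 and 0.487 CPM in WT and 103, 152, 133 and 85.1 CPM in G93A mice, and Itgax, the integrin CD11c, at 0.485, 0.302, 0.607 and 0.227 CPM in WT and 48.1, 76.7, 74.2 and 49.1 CPM in G93A mice. In all 3 genes every G93A mouse lay above every WT mouse. Gpnmb, a glycoprotein of phagolysosomes, rose from 1.43 ± 0.409 to 220.3 ± 89.96 CPM (SD, n = 4 each), with 224, 268, 296 and 92.9 CPM in the 4 G93A mice, lowest in G93A 12. Lpl, which cleaves triglycerides for uptake, rose 25.9-fold and Igf1, a growth factor, 8.71-fold.

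The list of homeostatic microglia, genes of the resting cell, also rose, in 14 of 15 genes with a median of 1.89, but 1 member, the fructose transporter Slc2a5, did not pass, and the rises of P2ry12, Sall1 (0.45) and Tmem119 were the smallest. P2ry12, the nucleotide receptor that guides microglial processes, was at 23.5, 21, 25.8 and 14.9 CPM in WT and 25.7, 27.2, 28.6 and 29.5 CPM in G93A mice, and the groups overlapped (log2 fold change 0.39, SE 0.13, adjusted p = 0.0271). Tmem119 was at 12.9, 13.5, 12 and 13.2 CPM in WT and 17.8, 21.7, 25 and 16.6 CPM in G93A mice, without overlap, a log2 fold change of 0.65 (SE 0.12, adjusted p = 2.65e-04). Cx3cr1, the receptor for fractalkine, rose by 2.08, Aif1, which encodes the stained marker Iba1, by 2.70 and Fcrls, an Fc receptor-like scavenger protein, by 3.86 on the same scale. Of the 15, 12 passed as higher with the caudal Hox covariate. In the CSF1 receptor list, on which microglial survival rests, 11 of 12 genes rose, among them the transcription factors Spi1 (7.39-fold) and Irf8 (9.57-fold).

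Markers of border macrophages and of blood-derived cells were low. Of 12 genes of border and monocyte-derived macrophages, 9 were tested and 4 rose, led by Ms4a7 (at least 23.5-fold; 2.79, 4.21, 3.62 and 1.5 CPM in G93A mice). Of 14 lymphocyte genes, 4 were tested and 2 rose: Cd3g, a chain of the T cell receptor complex, from between 0 and 0.152 CPM to 0.707, 0.496, 0.618 and 0.534 CPM, and Cd8a from between 0 and 0.114 CPM to between 0.118 and 0.577 CPM. The summed level of the macrophage list was 3.95 to 4.8 CPM in WT and 7.41 to 12.3 CPM in G93A mice, and that of the lymphocyte list was 1.04 to 1.42 CPM in WT and 2.04 to 2.6 CPM in G93A mice; their part in the microglial and immune results was not tested. The 2 neutrophil genes tested did not pass.

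**Figure D2:**
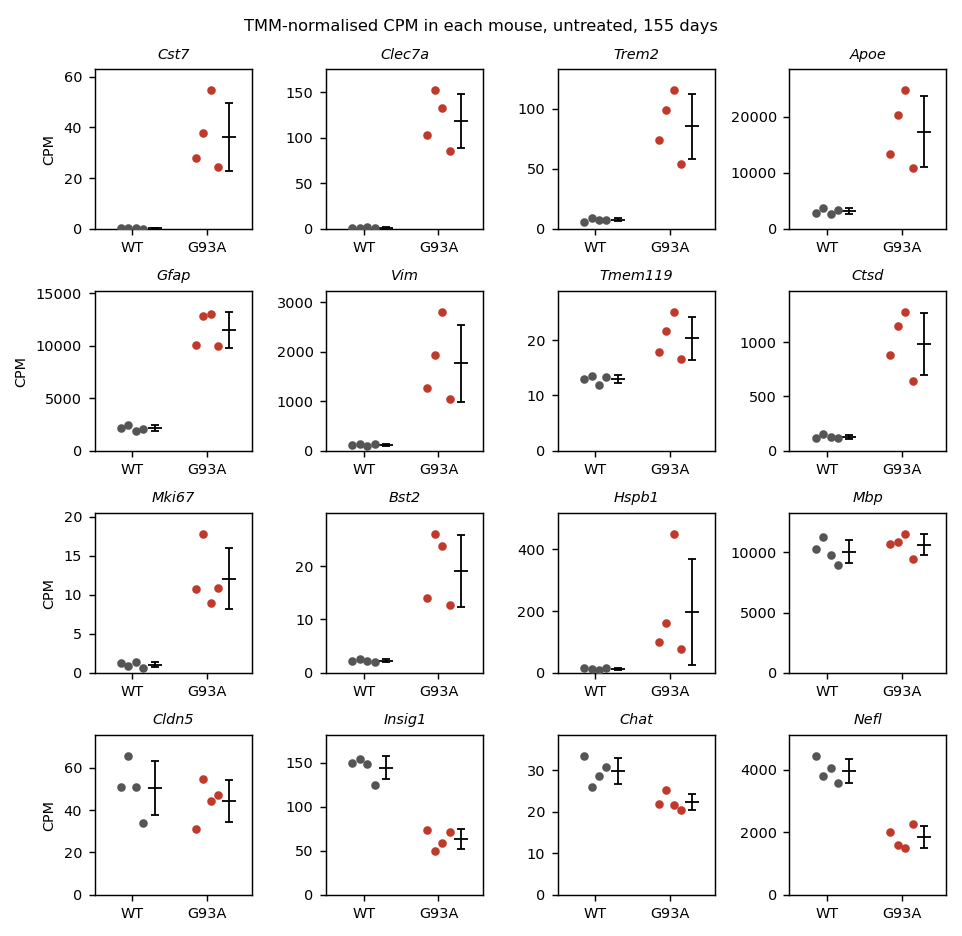
Each panel is 1 gene, with its level in CPM (linear axis from 0) in the 4 WT and 4 G93A mice as points, and bars for the mean and SD. Cst7, Clec7a, Trem2, Apoe, Gfap and Vim show no overlap between groups, while Mbp and Cldn5 overlap.

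Genes of the Trem2 receptor path rose together. All 12 genes of the Trem2 and Syk list were called higher, with a median of 2.43. Trem2 and Tyrobp are also members of the disease-associated list and were counted in both. Trem2 was at 5.97, 9.1, 7.29 and 7.33 CPM in WT and 73.7, 98.8, 116 and 53.7 CPM in G93A mice (log2 fold change 3.53, SE 0.21, adjusted p = 2.11e-10), and its signalling partner Tyrobp at 4.14, 6.77, 5.13 and 4.09 CPM in WT and 67.7, 92.4, 93.5 and 47.8 CPM in G93A mice. The groups of both were far apart. Downstream, the kinase Btk rose 6.99-fold and the adaptor Blnk 8.77-fold. All 5 Fc gamma receptor genes, which bind antibody-coated material, rose, from the activating Fcgr4 (15.1-fold) and its signalling chain Fcer1g (10.8-fold) to the inhibitory Fcgr2b (23-fold).

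Complement genes rose in 14 of 18 tested, with a median of 3.15. C1qa, which starts the classical pathway, went from 39.2 ± 7.97 to 458 ± 159 CPM, and C3, the component on which all pathways meet, from 78.5 ± 7.36 to 631 ± 201 CPM (SD, n = 4 each; both genes were picked after their values were seen). Of the receptors, C5ar1 rose by 3.71, C3ar1 by 4.23 and the integrin chain Itgb2 by 3.64 on the log2 scale. The list shares Itgb2, Itgam and Itgax with the integrin or microglial lists. The called gene in the other direction was Cd55, which shields host cells from complement, at 18.3, 12.9, 16.9 and 14.3 CPM in WT and 9.67, 10.8, 7.82 and 7.54 CPM in G93A mice.

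Chemokines of the CC and CXC families rose in 12 of 14 genes tested, with a median of 3.64. Ccl3, which draws in monocytes and other leukocytes, was at 0, 0.216, 0.266 and 0.195 CPM in WT and 12.8, 13.9, 12.5 and 11 CPM in G93A mice. Ccl4, its close neighbour and paralog, was at 0.0373, 0, 0.114 and 0.195 CPM in WT and 6.72, 7.85, 6.38 and 6.44 CPM in G93A mice, and Ccl6 rose by 4.20 on the log2 scale. Cx3cl1, the fractalkine that neurons present to microglia, was the called gene in the other direction, at 124, 129, 120.2 and 131 CPM in WT and 108, 97.7, 80.5 and 111 CPM in G93A mice. Of 8 receptors tested 6 rose, while Ackr1, the scavenging receptor of venules, fell by 0.42 with overlapping groups. Under the caudal Hox covariate 3 receptors passed as higher and 0 as lower, with a median of 1.4 in place of 1.57.

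In the interleukin-1 and TNF list 15 of 19 genes rose. The antagonist of the interleukin-1 receptor led the list: Il1rn was at 0.0373, 0, 0.038 and 0 CPM in WT and 2.52, 1.94, 2.06 and 1.53 CPM in G93A mice, at least 15.6-fold higher. Of the agonists, Il1a reached 2.0, 3.1, 3.38 and 2.34 CPM and Il1b 0.983, 1.07, 0.494 and 0.667 CPM in G93A mice, and Tnf 0.511, 1.115, 0.865 and 0.601 CPM. None of the 3 overlapped with WT mice. In the gp130 and STAT3 list, read by cytokines of the interleukin-6 family, 8 of 12 rose and 2 fell. Socs3, the feedback inhibitor of this pathway, was at 1.49, 3.06, 2.05 and 2.24 CPM in WT and 23.2, 58.6, 27.2 and 27.9 CPM in G93A mice, highest in G93A 10. The ligand Osm rose 10.6-fold and its receptor Osmr 10.1-fold, whereas Jak1 fell by 0.35 and Lifr by 0.30. Il6 was below the filter, with at most 6 counts in any of the 8 mice.

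Receptors for microbial and damage signals followed. Of the Toll-like receptor list 17 of 18 rose, among them Tlr7 (10.2-fold), a sensor of single-stranded RNA, Tlr1 (10.3-fold) and Cd180 (9.67-fold). In the inflammasome and necroptosis list 10 of 11 rose, with Nlrp3, the sensor, at 2.2, 3.14, 3.46 and 2.7 CPM and Pycard, its adaptor ASC, at 9.24, 11.4, 8.77 and 6.44 CPM in G93A mice. All 6 subunits of the phagocyte oxidase, which makes superoxide, rose: the catalytic Cybb was at 0.634, 0.949, 0.456 and 0.649 CPM in WT and 31.4, 44.7, 39.99 and 20.4 CPM in G93A mice, and its partner Cyba rose 9.5-fold.

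Antigen presentation rose in both classes. Of the class I list 11 of 12 genes were higher; B2m, the light chain, was at 102, 112, 104 and 88.4 CPM in WT and 435, 603, 654 and 352 CPM in G93A mice. H2-Q4, which shares reads with other class I genes and is uncertain, rose by 2.03, and Nlrc5, the transactivator of class I genes, by 2.29. All 7 class II genes tested rose with a median of 2.04. Cd74, the invariant chain, was at 2.57, 3.75, 1.94 and 2.53 CPM in WT and 16.4, 27.6, 40.1 and 23.2 CPM in G93A mice, highest in G93A 11, and H2-Aa reached 3.66, 7.19, 10.6 and 5.94 CPM in G93A mice.

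Interferon-stimulated genes rose in 19 of 20, with a median log2 fold change of 1.88. Bst2, the tetherin that holds budding virus particles, was at 2.24, 2.63, 2.2 and 2.08 CPM in WT mice and 14, 26, 23.7 and 12.7 CPM in G93A mice. Mx1, a GTPase that acts on viruses, was at 0.41, 0.129, 0.304 and 0.227 CPM in WT and 2.0, 6.03, 4.2 and 1.94 CPM in G93A mice, with G93A 10 the highest in both genes. No WT mouse reached the lowest G93A mouse in either gene. Zbp1, a sensor of Z-form nucleic acid, rose 12.4-fold and Oas1a, which makes 2'-5' oligoadenylate, 7.49-fold. Factors of the interferon response bind DNA with paired GAAA cores, so the promoters of these genes (250 bases before the start, RefSeq, GRCm38.p6) were searched on both strands for GAAANNGAA. It was found in 7 of the 14 listed genes with a promoter entry (50%) and in 8.2% of the 27025 genes with an entry. A match is a description of letters, not a binding site. The last 150 bases before the start are shown for Bst2 (chr8:71537473-71537622, minus strand) and for Ifit1 (chr19:34640739-34640888, plus strand; picked for display after its values were seen, 3.29 ± 1.21 CPM in WT and 11.9 ± 3.72 CPM in G93A mice), since both genes hold overlapping matches; capitals mark the matches, which in Ifit1 read on the other strand.
Bst2: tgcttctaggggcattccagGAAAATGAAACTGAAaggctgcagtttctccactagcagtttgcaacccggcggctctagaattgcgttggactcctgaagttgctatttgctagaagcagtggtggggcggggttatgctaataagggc
Ifit1: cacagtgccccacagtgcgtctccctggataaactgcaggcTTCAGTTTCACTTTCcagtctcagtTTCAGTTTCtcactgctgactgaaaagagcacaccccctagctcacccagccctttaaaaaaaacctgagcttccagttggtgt

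Genes of the lysosome rose unevenly, the proteases and membrane proteins together and the acidifying pump not. Of the cathepsin list 12 of 15 rose, with a median of 1.75. Ctsd, the aspartic protease of the lysosome, was at 121, 156, 127 and 117 CPM in WT and 881, 1151, 1276 and 638 CPM in G93A mice, and Ctss, the microglial cysteine protease, at 139.9, 167, 142 and 123 CPM in WT and 1001, 1401, 1626 and 814 CPM in G93A mice. Both groups were far apart, with G93A 12 the lowest of its group. Ctsk fell by 0.48 and Cst6 by 0.92. In the wider lysosomal list 22 of 26 rose by a smaller median of 0.70: Cd68, the macrophage marker, went from 4.32 ± 0.69 to 102 ± 29 CPM, and Grn, the progranulin precursor, rose 7.63-fold. Of 19 subunits of the vacuolar ATPase 4 rose, 8 fell and 7 did not pass. Atp6v0e rose by 0.96 beside the Atp6v0d2 already given, and the neuronal Atp6v1g2 fell by 0.57. With the covariate 2 passed as lower and 4 as higher (median -0.11 in place of -0.14).

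The palindrome TCACGTGA, which the lysosomal regulator TFEB and its relatives bind, was found in the 250 bases before the start of 2 of 11 cathepsin and cystatin genes (18.2%), 2 of 20 lysosomal genes (10%) and 1 of 13 pump genes (7.7%), against 0.9% of all genes with a promoter entry. Genes with the palindrome did not all rise: Ctsd, Ctsa (1.55) and Gla (0.35) were higher, Atp6v1a was lower (-0.41) and Mcoln1 did not pass. The match of Ctsd (chr7:142387828-142387977, minus strand, GRCm38.p6) is shown in capitals because this gene had the largest rise of those with the palindrome.
Ctsd: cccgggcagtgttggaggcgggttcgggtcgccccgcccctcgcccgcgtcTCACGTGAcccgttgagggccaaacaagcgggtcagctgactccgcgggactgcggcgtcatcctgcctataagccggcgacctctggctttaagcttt

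Genes that handle lipid rose while genes that make cholesterol fell. In the list of lipid handling and efflux 14 of 20 were higher. Apoe was at 2817, 3792, 2659 and 3284 CPM in WT and 13440.0, 20421, 24780.0 and 10831 CPM in G93A mice, the largest gain in CPM of any gene called. Ch25h, which makes 25-hydroxycholesterol, was at 0.112, 0.173, 0.114 and 0.195 CPM in WT and 7.9, 12.8, 6.88 and 6.97 CPM in G93A mice. Neither gene overlapped between groups. Cyp46a1, the neuronal enzyme that makes 24-hydroxycholesterol, fell by 0.30.

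Of the 21 genes of cholesterol synthesis and its control 20 fell and none rose, with a median of -0.70, against -0.45 among all genes called lower. Insig1, which holds back the regulator SREBP and is also its target, was at 150.1, 154, 149 and 125 CPM in WT and 74.1, 49.8, 58.8 and 71.2 CPM in G93A mice. G93A 10 and 11 were the lowest and the groups did not overlap. Idi1 fell by 1.25 and Mvd by 0.96, and 18 genes passed as lower with the caudal Hox covariate. Hmgcs1, the enzyme before the rate-limiting step, went from 608 ± 54.9 to 315 ± 52 CPM (picked after its values were seen) and was the 1 gene of the 16 with a promoter entry (6.2%) that holds TCACCCCAC, a sterol-response sequence found in 0.6% of all promoters. It lies in chr13:119690201-119690350 (plus strand, GRCm38.p6), with the match in capitals.
Hmgcs1: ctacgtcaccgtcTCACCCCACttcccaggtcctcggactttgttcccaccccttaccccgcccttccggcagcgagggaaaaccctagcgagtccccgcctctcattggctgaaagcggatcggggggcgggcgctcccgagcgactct

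Astrocyte genes of reactivity rose strongly and those of identity modestly. All 15 genes of the reactive list were higher, with a median of 3.41. Gfap, the intermediate filament protein of astrocytes, was at 2214, 2489, 1897 and 2111 CPM in WT and 10031, 12882, 13076 and 10016 CPM in G93A mice (log2 fold change 2.4, SE 0.11, adjusted p = 1.41e-11). Gfap belongs to the identity list below and not to the reactive list. Vim, another filament protein, was at 115, 135, 96.6 and 136 CPM in WT and 1274, 1929, 2803 and 1055 CPM in G93A mice, and Timp1, an inhibitor of matrix proteases, at 0.112, 0.345, 0.038 and 0.162 CPM in WT and 13.8, 20.8, 27.6 and 11.7 CPM in G93A mice. Every G93A mouse lay above every WT mouse in these 3, and G93A 11 was the highest. Serpina3n, a secreted inhibitor of the acute phase whose paralogs may take some of its reads, rose 29.3-fold. Cxcl10 went from 0.0746, 0.345, 0.152 and 0.13 to 3.18, 10.9, 6.22 and 3.84 CPM. Lcn2, an iron-binding secreted protein, passed with overlapping groups, at 0.112, 1.6, 0.835 and 1.2 CPM in WT and 1.73, 3.76, 33.3 and 1.5 CPM in G93A mice, so that its mean rests on G93A 11.

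Of 12 identity markers 8 rose, with a median of 0.35. Aqp4, the water channel of the end feet, was at 606, 525, 564 and 428 CPM in WT and 1246, 1549, 1116 and 1244 CPM in G93A mice. Slc1a2, the main glutamate transporter, was at 1105, 905, 1038 and 998 CPM in WT and 1168, 1202, 1348 and 1201 CPM in G93A mice, a rise of 0.28 (SE 0.07, adjusted p = 0.00427). Aldh1l1 rose 1.92-fold. In the list of glutamate uptake and the glutamine cycle 2 genes rose and 2 of 9 fell, with Slc1a1, the neuronal transporter (-0.40), among the latter. Those shares were near the 21.3% and 18.2% of all genes.

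Genes of mature oligodendrocytes, the myelin-forming cells, mostly did not pass. Mbp was at 10247, 11284, 9762 and 8966 CPM in WT and 10730.0, 10867, 11518 and 9445 CPM in G93A mice, with overlap (log2 fold change 0.08, SE 0.08, adjusted p = 0.451). Of 12 markers 2 rose: Cldn11, the tight-junction protein of myelin, at 220.1, 230.3, 241 and 211 CPM in WT and 421, 422, 497 and 344 CPM in G93A mice, and Mag by 0.25. Without WT 2, or without G93A 9, 4 markers passed, counted in either direction. Of the 12 precursor genes 8 rose, with Gpr17, a receptor of cells about to mature, 2.0-fold and Cspg4, which encodes NG2, 1.83-fold higher. The covariate gave 5 precursor genes higher, at a median of 0.37 in place of 0.38.

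All 12 pan-neuronal genes fell, with a median of -0.54. Rbfox3, which encodes NeuN, was at 207, 225, 213 and 226 CPM in WT and 153, 138, 149.9 and 155 CPM in G93A mice. Snap25, a protein of vesicle fusion, fell by 0.66 and the RNA-binding Elavl4 by 0.58 on the log2 scale. Of the 12, 10 passed as lower with the caudal Hox covariate.

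Motor neuron genes fell in 12 of 14, with a median of -0.68, and by unequal amounts. Chodl, which marks the fast motor neurons that fail first in this model, was at 35.3, 19.8, 23 and 19.8 CPM in WT and 4.21, 4.58, 4.2 and 3.2 CPM in G93A mice (log2 fold change -2.60, SE 0.19, adjusted p = 2.69e-09). Mmp9, another gene of the vulnerable fast subtype, was at 9.96, 8.16, 8.58 and 8.6 CPM in WT and 2.79, 2.56, 3.09 and 3.1 CPM in G93A mice. Chat, the enzyme that makes acetylcholine in all cholinergic neurons, was at 33.4, 26, 28.6 and 30.8 CPM in WT and 21.9, 25.2, 21.7 and 20.5 CPM in G93A mice. No mouse overlapped in the 3 genes, but the ratio of WT to G93A was 6.07 for Chodl, 3.05 for Mmp9 and 1.33 for Chat. The motor neuron transcription factors Isl2 and Mnx1 fell by 1.4 and 1.29. With the caudal Hox covariate 11 of 14 passed as lower.

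Interneuron markers gave fewer calls, and their number moved with the setting. Of 12 inhibitory genes 6 fell, led by the glycine transporter Slc6a5 (-0.83) and the vesicular transporter Slc32a1 (-0.70), and 1 rose (Rorb, 0.57). With the caudal Hox covariate 1 passed as lower (median -0.14 in place of -0.39), and with 1 surrogate variable 8. Of 13 excitatory genes 5 fell. The covariate gave 1, although the median went from -0.23 to -0.33, and the surrogate variable gave 7. Slc17a6, the vesicular glutamate transporter of these cells, was at 212, 182, 213 and 157 CPM in WT and 125, 80.05, 71.6 and 128 CPM in G93A mice, lowest in G93A 10 and 11.

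**Figure D3:**
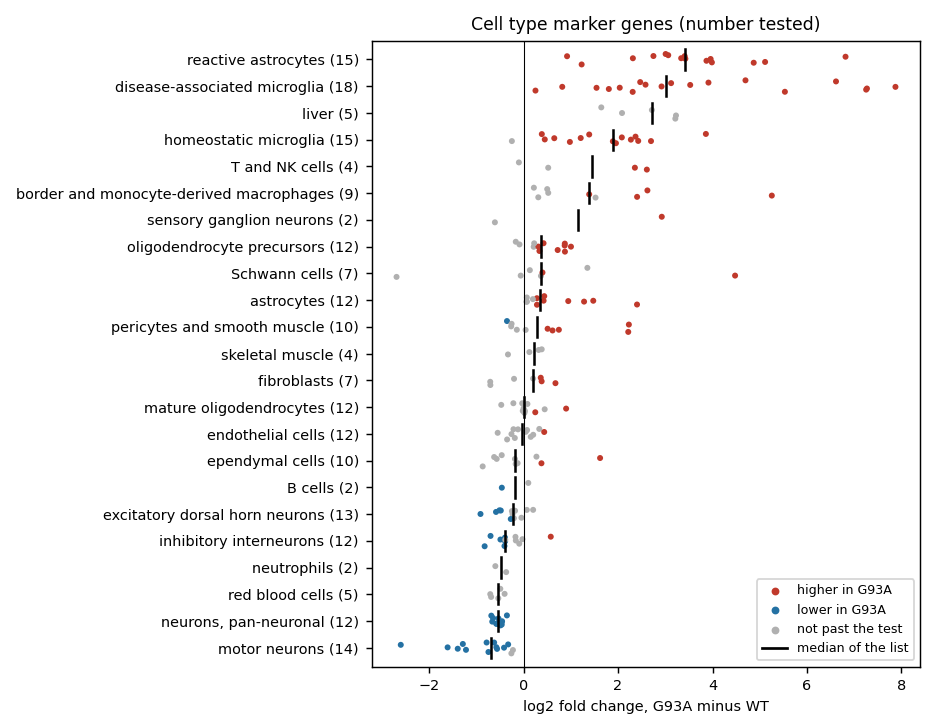
Each row is a list of cell type markers, with the log2 fold change (G93A minus WT) of each tested member as a point, red where it passed as higher, blue as lower and grey where it did not pass, and a bar at the list's median. Disease-associated microglia (median 3.02) and reactive astrocytes (3.41) lie furthest to the right, and pan-neuronal (-0.54) and motor neuron (-0.68) genes lie to the left.

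Genes of the synapse and of excitability fell widely. Of 23 genes of synaptic vesicles and release 22 fell, with Sv2b by 1.05, the calcium sensor Syt2 by 0.83 and Vamp1 by 0.81, and 15 passed with the caudal Hox covariate (median -0.64 in place of -0.66). Of 18 postsynaptic scaffolds 15 fell, with a smaller median of -0.28, and 5 passed with that covariate at a median of -0.24. Without the covariate, leaving out G93A 10 gave 8 falls. The glutamate receptor list fell in 11 of 16, deepest in Grin3b, an NMDA receptor subunit of motor neurons (7.31, 6.3, 7.29 and 6.42 CPM in WT, 2.67, 2.93, 2.22 and 2.8 CPM in G93A mice).

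Receptors for GABA and glycine fell in 12 of 16 genes. Gabrb2 had the largest change but overlapping groups, at 13.5, 7.85, 11.6 and 1.85 CPM in WT, where WT 4 was low, and 4.01, 1.32, 0.906 and 1.94 CPM in G93A mice. Glra3, a glycine receptor subunit, fell by 1.01, and Gabrg1, which rose by 0.40, was the called gene in the other direction. Voltage-gated sodium and calcium channels fell in 17 of 19, among them Scn8a, the channel of the axon's initial segment (-0.60), and Scn4b (-0.79). Voltage-gated potassium channels fell in 16 of 18 with a median of -0.61. Under the covariate 11 sodium and calcium channels (median -0.45 in place of -0.44) and 13 potassium channels (median -0.58) passed as lower.

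Genes of the axonal skeleton fell, and the 3 neurofilament chains had the 3 largest losses in mean CPM of all genes called. Of 14 genes 13 fell. Nefl, the light neurofilament, was at 4432, 3781, 4063 and 3556 CPM in WT and 1997, 1591, 1506 and 2268 CPM in G93A mice. Nefm, the medium chain, was at 5995, 4156, 5262 and 4744 CPM in WT and 2313, 2153, 2136 and 3140.4 CPM in G93A mice, and Nefh, the heavy chain, at 3171, 2412, 2906 and 2507 CPM in WT and 1230.1, 1061, 919 and 1467 CPM in G93A mice. Each fell without overlap, by 1.10, 1.05 and 1.23 on the log2 scale. In the axon injury list 8 of 15 rose: Atf3, the transcription factor that injured neurons switch on, was at 1.57, 1.6, 1.03 and 1.75 CPM in WT and 27.2, 34.3, 39.4 and 23.7 CPM in G93A mice, and Sprr1a, a protein of regrowing axons, at 0.336, 0.432, 0.114 and 0.0973 CPM in WT and 6.56, 9.54, 18.1 and 7.31 CPM in G93A mice. In the same list Nmnat2, which keeps axons alive, fell by 0.27 and Sarm1, which executes their breakdown, fell by 0.61.

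Of 24 genes in which mutations are linked to ALS 2 rose and 10 fell. The rises were in Ang, the ribonuclease angiogenin, and in Pfn1, an actin-binding protein (0.67). Tuba4a (-0.72), a tubulin, and Kif5a (-0.66), a motor of axonal transport, fell the furthest. The falls numbered 5 with the caudal Hox covariate, at a median of -0.16 with and without it, and 5 with 1 surrogate variable.

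Genes of energy metabolism moved little. Complex I genes fell in 12 of 37 with a median of -0.17, in 1 with the caudal Hox covariate (median -0.11), in 6 with 1 surrogate variable and in 5 without G93A 10 or without WT 2. ATP synthase genes fell in 6 of 17, with 1 under that covariate (median -0.13 in place of -0.20), 2 without G93A 10 and 3 without WT 4. Of the TCA cycle 6 of 18 fell and 2 rose. The covariate gave 0 lower and 2 higher genes of this cycle, at a median of -0.13 in place of -0.15, and 5 passed in all without G93A 10 or without WT 2. Among the rises in oxidative genes were Idh2 (0.86) and Cox7a1 (1.12). The mitochondrial transcript mt-Nd1 was at 5936, 5329.8, 6292 and 4639.7 CPM in WT and 4403, 4330.3, 4312 and 4293 CPM in G93A mice and fell without overlap by 0.36 on the log2 scale. In the glycolysis and lactate list 5 rose and 4 of 23 fell, shares near the 21.3% and 18.2% of all genes. Among single members, the lactate exporter Slc16a3 rose 7.84-fold, the hexokinase Hk2 5.98-fold and Ldha 1.8-fold, whereas the neuronal glucose transporter Slc2a3 fell by 0.40 and the neuronal enolase Eno2 by 0.65. Of this list 1 passed as lower with the covariate, where the median was -0.01 as without it.

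Cytosolic ribosomal protein genes rose in 62 of 81, by a median of 0.41. Their mean log2(CPM + 1) was 6.60, 7.10, 6.61 and 6.82 in WT mice and 7.16, 7.24, 7.39 and 6.97 in G93A mice, so WT 2 lay inside the G93A range. Without WT 2 the count was 74, over all mice left out in turn it was 47 to 74, and with the caudal Hox covariate it was 37 (median 0.45), and with 1 surrogate variable it was 29. Of 38 proteasome genes 6 rose and 2 fell. The rises included the interferon-induced subunits Psmb8 (5.24-fold) and Psmb9 (3.15-fold), while Psmc5, an ATPase of the regulatory particle, fell by 0.25. In all 14 passed without WT 2 and 5 without WT 3, while the covariate gave 4 higher and 0 lower (median 0.11 in place of 0.03).

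Of 24 genes of the unfolded protein and integrated stress response 15 rose and 1 fell, and 8 passed as higher with the caudal Hox covariate (median 0.28 in place of 0.30). Trib3, a pseudokinase that feeds back on the pathway, rose 5.53-fold and the transcription factors Ddit3 and Atf5 2.27-fold and 1.98-fold, while Asns, a target of the same arm that makes asparagine, fell by 0.33. In the heat shock list 12 of 23 rose, led by small chaperones. Hspb1 was at 13.9, 11.9, 9.0 and 14.7 CPM in WT and 100.2, 161, 449 and 77 CPM in G93A mice, highest in G93A 11, and Hspb6 rose 4.08-fold. Hsph1, of the large chaperones, fell by 0.38 with overlapping groups. Heat shock factor binds inverted GAA repeats. GAANNTTC was found before the start of 8 of 17 listed genes (47.1%) and of 7.7% of all genes. These 8 are not all separate: Hspe1 and Hspd1 share the same match between their starts, and Hspa1a and Hspa1b have near-identical promoters. Among the 8, Dnaja1 and Hspd1 did not pass and the others rose. The promoter of Hspb1 (chr5:135887769-135887918, plus strand, GRCm38.p6) is shown with its matches in capitals since this gene rose most in the list.
Hspb1: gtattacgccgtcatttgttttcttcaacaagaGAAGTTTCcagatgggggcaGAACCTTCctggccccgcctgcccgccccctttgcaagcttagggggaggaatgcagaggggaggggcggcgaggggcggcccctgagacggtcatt

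Antioxidant genes rose in part. Of 18 Nrf2 targets 10 rose, 1 fell and 7 did not pass. Hmox1, which breaks down haem, was at 4.14, 5.01, 5.66 and 4.54 CPM in WT and 23.2, 48, 46.4 and 24.3 CPM in G93A mice, and the membrane transferase Mgst1 rose 2.42-fold. TGACNNNGC, the core of the antioxidant response element, lay before the start of 4 of 14 (28.6%) listed genes and of 11.5% of all genes. Of these 4, Mgst1 and G6pdx rose, and Gclm and Txnrd1 did not pass. Of 16 superoxide and peroxide enzymes 7 rose and 1 fell: Prdx6 rose 4.0-fold and Gpx1 2.26-fold, while Sod2, the mitochondrial dismutase, fell by 0.42. All 3 metallothioneins, which bind zinc and copper, rose, with Mt1 at 214, 296, 239 and 349 CPM in WT and 949.95, 1369, 2799.6 and 814 CPM in G93A mice. In the iron list 8 of 13 rose, among them the ferritin light chain Ftl1 (3.53-fold) and the phagosomal transporter Slc11a1 (13.3-fold), and Tfrc, which takes in iron, fell by 0.55 with overlapping groups.

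Cell cycle genes rose in 19 of 22, with a median of 1.51. Mki67, present in dividing cells, was at 1.19, 0.906, 1.44 and 0.616 CPM in WT and 10.7, 17.8, 8.98 and 10.8 CPM in G93A mice, highest in G93A 10, and Top2a, the topoisomerase of dividing cells, rose 10.02-fold. Ccne1 fell by 0.53. Of 15 p53 targets 10 rose, with Gdf15, a stress cytokine, at 0.0746, 0.0863, 0.038 and 0.195 CPM in WT and 1.38, 2.93, 3.13 and 1.5 CPM in G93A mice. Cdkn1a, the p21 inhibitor, passed with overlapping groups (16.3, 15.8, 15.1 and 47.9 CPM in WT and 31.2, 32.6, 135 and 26 CPM in G93A mice), and WT 4 and G93A 11 were far above the rest of their groups.

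Vascular markers mostly did not pass. Cldn5, of the endothelial tight junction, was at 51.2, 65.6, 51.1 and 34.2 CPM in WT and 31, 55, 44.2 and 47.1 CPM in G93A mice, with overlap (log2 fold change -0.19, SE 0.19, adjusted p = 0.477), and of 12 endothelial genes only Vwf passed (0.44). Of 10 pericyte and smooth muscle genes 5 rose, with Tagln 4.69-fold and Anpep 4.64-fold, and 1 fell (Abcc9, -0.35). With the covariate 3 of them passed as higher and 0 as lower, at a median of 0.21 in place of 0.28. In the matrix list 8 of 18 rose and 3 fell: fibronectin (Fn1) rose 3.59-fold and Lamb2 2.27-fold, and Col4a2 and Nid1 of the basement membrane fell by 0.45 and 0.56. The covariate gave 1 lower and 8 higher matrix genes (median 0.35 in place of 0.30). Of the TGF-beta list 10 of 13 rose, among them the ligand Tgfb1 (4.45-fold). Integrins and adhesion genes rose in 13 of 15. Of matrix metalloproteinases and their inhibitors 7 rose, with Mmp19 11-fold higher, and 3 of 13 fell, Mmp9 and Mmp15 (-0.59) among them.

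**Figure D4:**
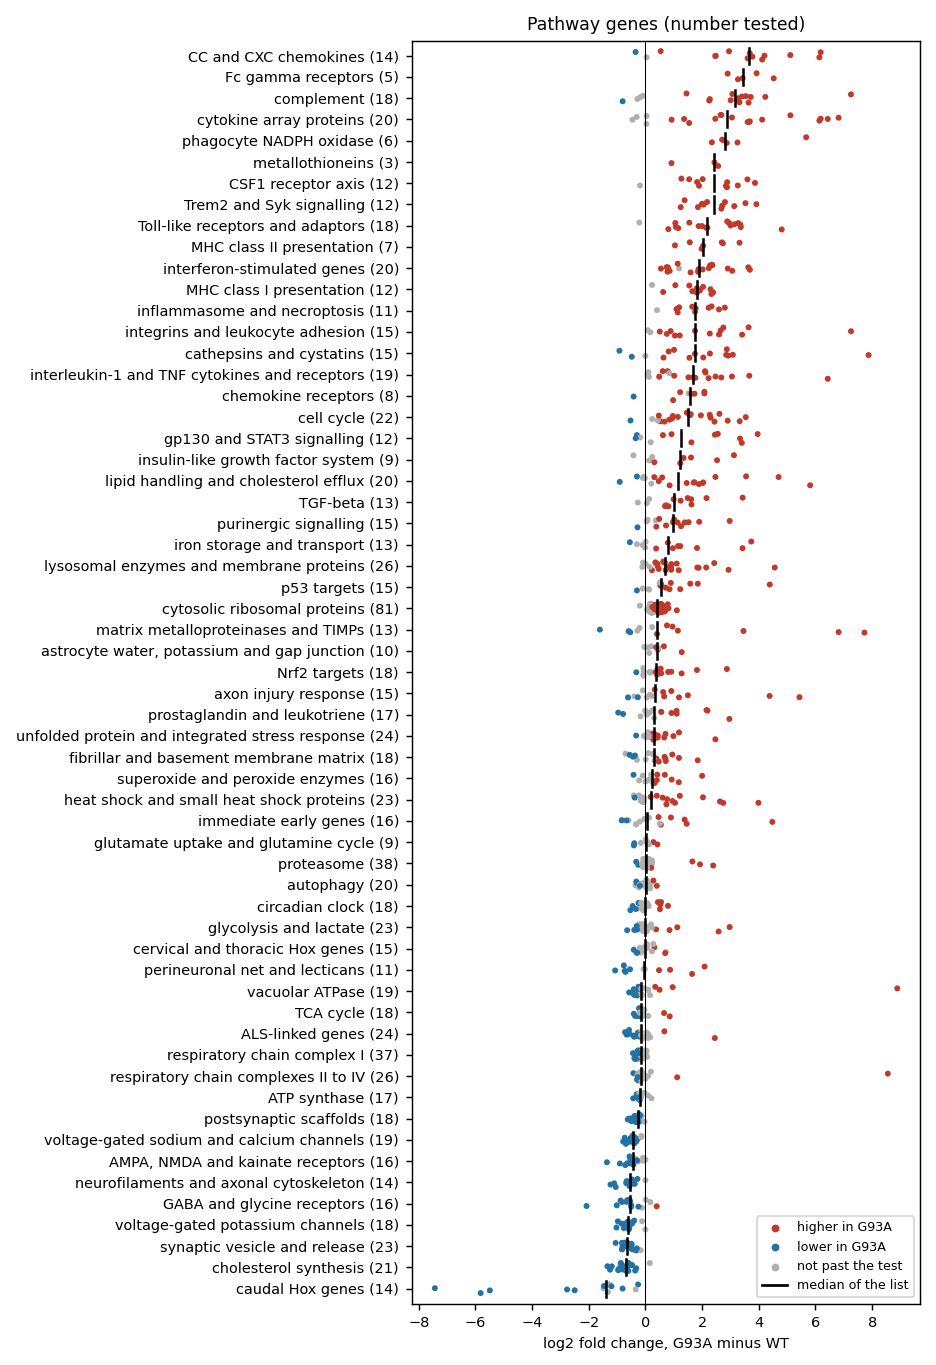
Each row is a pathway list, with the log2 fold change (G93A minus WT) of each tested member as a point, red where it passed as higher, blue as lower and grey where it did not pass, and a bar at the list's median. Chemokines (median 3.64) have the highest median, and cholesterol synthesis (-0.70) and synaptic vesicle genes (-0.66) the lowest apart from caudal Hox genes (-1.39).

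The 4 G93A mice differed among themselves in the size of the change. The first principal component of the 8 mice held 72.3% of the variance and separated the genotypes, with WT mice between -39.3 and -34.2 and G93A mice at 26, 46.9, 53.04 and 20.9. Of the 34 lists whose mean level was at least 0.5 higher in G93A mice, G93A 10 and 11 both lay above 9 and 12 in 31, and G93A 12 was the lowest in 26. Of the 12 lists at least 0.3 lower, G93A 10 and 11 both lay below 9 and 12 in 10. Several lists share members, so these counts are not over independent lists. The disease-associated list was at 7.55, 7.96, 8 and 7.26 in G93A mice and at 4.31 to 4.59 in WT mice (mean log2(CPM + 1)), and the synaptic vesicle list was at 7.54, 7.21, 7.09 and 7.65 in G93A mice and 8.06, 7.97, 8.03 and 7.91 in WT mice. Caudal Hox genes did not follow that order, since they were low in G93A 9 and 10.

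**Figure D5:**
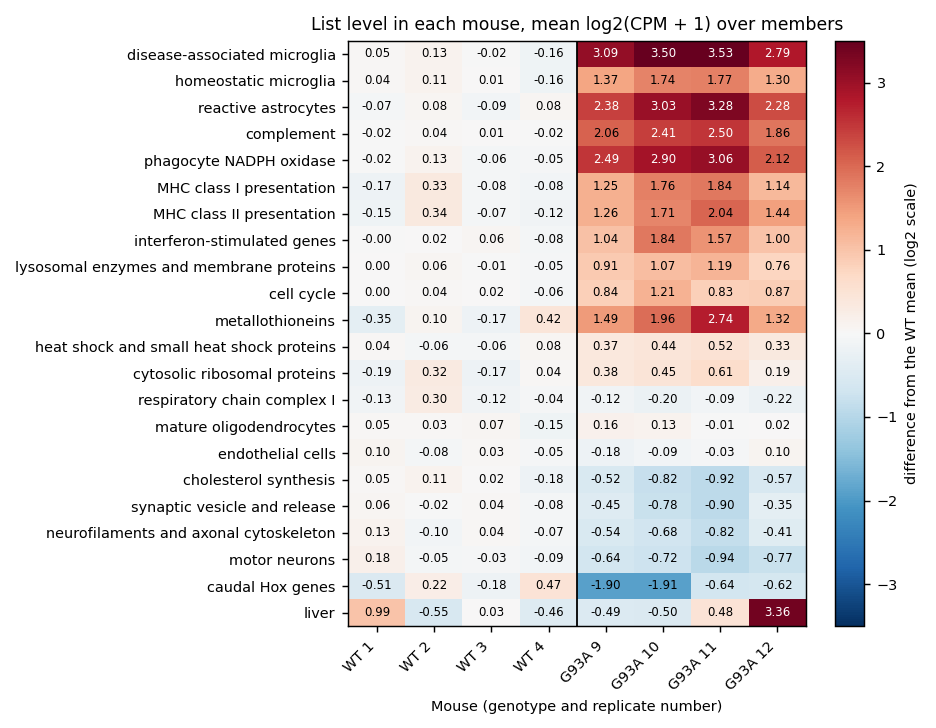
Each row is 1 of 22 gene lists and each column 1 of the 8 mice; the colour and the number in each cell give the list's mean log2(CPM + 1) minus its mean over the 4 WT mice. G93A 10 and 11 carry the deepest colours in most lists, upward and downward, WT 2 departs from the other WT mice in the ribosomal list, and the liver list is high in G93A 12.

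At the earlier age the same comparison of untreated mice gave 0 called genes of 18899 tested (edgeR quasi-likelihood F test), with 1126 at an unadjusted p under 0.05. The difference between the 2 ages was tested itself, over different animals. The G93A change at 155 days differed from that at the earlier age in 4211 of 19829 genes (21.2%). Every tested member differed in the lists of reactive astrocytes (15 of 15 tested), Trem2 and Syk signalling (12 of 12), Fc gamma receptors (5 of 5), the phagocyte oxidase (6 of 6) and metallothioneins (3 of 3). Of the pan-neuronal genes 8 of 12 differed and of the motor neuron genes 6 of 14, with Chodl at -0.13 at the earlier age and Mmp9 at -0.15 on the log2 scale. Cst7 was at 2.26 and Clec7a at 1.91 at that age, and interferon-stimulated genes, of which 19 of 20 differed, had a median of 0.05 there.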

How the data were processed

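The authors sequenced polyadenylated RNA from the spinal cords of 32 mice (4 per group of genotype, treatment and age) and deposited raw counts per gene, which are not normalized. The study's methods name Trimmomatic, STAR on GRCm38/mm10, HTSeq and a GENCODE annotation; the submitters' processing notes name FastQC, STAR, featureCounts and edgeR with the builds hg38, GRCm39 and mm39, so the counter and build of the deposited counts are uncertain, and the strand setting was not given in the sources used here. Of 42524 gene IDs 41218 (96.9%) were paired with a symbol through GENCODE M21; the other 1306 are not in that release. Symbols shared by several IDs were kept apart by ID. Every column belonged to 1 of the 32 mice, and totals of the 8 compared libraries were 23259870 to 30138257.

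Counts were analysed in R 4.3.3 with edgeR 4.0.16: filterByExpr by group, TMM factors, glmQLFit and glmQLFTest (two-sided) on the 16 mice of 155 days fitted as 4 groups, so that the treated mice share the estimate of the spread, and with the contrast of the untreated groups. An adjusted p under 0.05 (Benjamini-Hochberg over all genes tested) made a call. Standard errors of log2 fold changes came from the F statistic. The difference between ages was tested in 1 fit of all 32 mice. A list's level is the mean of log2(CPM + 1) over its tested members. Where no mouse of a group had more than 3 counts of a gene, its fold was taken from 3 counts in that group's smallest library and is a lower bound. On simulated counts for the comparison at 155 days (18245 genes), the test found 93.9% of 99 genes given a 4-fold change and 76.0% of 96 given a 2-fold change. Of its calls 4.05% were false. The simulation changed far fewer genes than were called in the data, with rises and falls drawn in equal number and size. These rates therefore need not hold for the data. The samples are separate mice by their labels.

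The 82 gene lists (23 of cell types, 59 of pathways) and the mice compared were chosen with earlier results of these data known, so no test was run over a list. Genes named are the 15 largest and 15 smallest log2 fold changes with non-overlapping groups and at least 1 CPM in a group, the 8 largest gains and losses in CPM, the 4 largest changes in each list plus the 2 largest in its rarer direction, and fixed markers, whatever their values. C1qa, C3, Ifit1, Hmgcs1, Sall1, Slc2a5 and Il6 are named outside that rule, and some genes that the rule names are not reported here. Promoters (250 bases before the start) came from RefSeq tables of GRCm38.p6, whose coordinates were not mixed with the files' own. A further motif, GAGGAAGT, was searched for the 2 microglia lists. It was found in 1 of 15 disease-associated genes with a promoter entry (6.7%) and in 0 of 10 homeostatic genes. The share over all genes with an entry was 2.8%. Alternatives were RLE factors, library size alone, no filter or at least 10 counts in every mouse, DESeq2 1.42.0, the likelihood ratio test, glmTreat, an adjusted p under 0.01, the 8 untreated mice alone, 1 surrogate variable (sva 3.50.0), the caudal Hox level as a covariate, each mouse left out, and, added after the data were examined, leaving out G93A 9 and 10. Sample numbers are shared between ages but mark different animals, and the correlation of the deviations of same-numbered mice was -0.18 to 0.26, so numbers were not taken as pairs.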

Additional observations from a re-analysis of the deposited data

Results flagged for a closer look

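Single mice that stood far from the other 3 of their group were looked for in 161 measures (322 groups of 4) with Dixon's criterion, where chance gives about 1 in 20 groups, or 16.1, and 16 were found. WT 2 was the highest WT mouse in the mean log2(CPM + 1) of the inflammasome list (1.712, next 1.605), the class II list (1.779, next 1.361), the cathepsin list (5.284, next 5.027) and the proteasome list (6.379, next 6.151), and the lowest in the glutamate receptor list (5.701, next 5.823). The same mouse was the highest WT mouse for ribosomal proteins. G93A 10 was the highest G93A mouse in the cell cycle list (3.072, next 2.731) and in Socs3 (58.61 CPM, next 27.93). Alb was at 142.9 CPM in G93A 12 (next 4.20), and Lcn2 at 33.27 CPM in G93A 11 (next 3.76). Cst7 was at 0.03244 CPM in WT 4 (next 0.1865), which at this depth is 1 count, and Cd3g was at 0 in WT 2 (next 0.1298). Serpina3m was at 5.559 CPM in G93A 11 (next 0.7022) and at 0.03797 CPM, or 1 count, in WT 3, with none in the other WT mice. WT 4 was the highest WT mouse in Cdkn1a (47.88 CPM, next 16.34) and Per1 (46.29, next 24.80), and G93A 11 the highest G93A mouse in Cdkn1a (134.7, next 32.59).

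The change between G93A and WT differed between the ages in 4211 genes by the test of the difference itself. The mice of the 2 ages are different animals, and the labels name no sequencing batch, so a batch that follows age cannot be told apart from age.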

How the results depend on the processing

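Of the counts over all genes, 7378 calls became 7442 with RLE factors, 7365 with library size alone, 7692 with DESeq2, 7440 with the likelihood ratio test, 6784 without a filter, 5830 with the 8 untreated mice alone and 5446 with 1 surrogate variable. With that variable 2247 genes were lower instead of 3397. With the caudal Hox covariate 4547 genes passed, of which 1721 were lower. The 1717 calls at a log2 fold change of at least 1 became 1052 where every mouse needed 10 counts, a setting that removes genes near 0 in WT mice, and glmTreat, which tests against that fold, called 868. Leaving out each mouse gave 6147 (without G93A 10) to 7577 (without G93A 12) calls, 3535 to 4242 higher, 2580 to 3514 lower, 1569 to 1952 at a log2 fold change of at least 1, and 3219 to 4865 genes that differed between ages. The share of calls that were higher was 54.0%, 62.2% with the Hox covariate and 51.6% with RLE factors. With a replicate block for the sample number, 4197 genes differed between ages instead of 4211, and numbers could not pair the 2 groups at 155 days, which share none. Among the named genes the direction turned in 3: the log2FC of Cdkn1a became -0.0416 with 1 surrogate variable, the log2FC of Hoxc11 became 0.4237 with the Hox covariate and the log2FC of Hoxc8 became -0.1282 with it. Of 365 named genes, 64 lost or fell short of their call with the Hox covariate, 39 with the surrogate variable and 19 at most when 1 mouse was left out. The count of called members moved by over 1.5 times in 22 of the 82 lists with the Hox covariate, 12 with the surrogate variable, 12 without G93A 9 and 10, and at most 6 when 1 mouse was left out (G93A 10). The causes were not tested. Of the genes under 1 CPM 17.6% passed; the part of depth in this was not tested.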

Other observations

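Several further gene groups changed with the genotype. Purinergic genes, through which cells read extracellular nucleotides, rose in 11 of 15, led by P2ry6, the UDP receptor that starts phagocytosis (7.85-fold), and the adenosine receptor Adora3 (3.72-fold), while P2ry1 fell by 0.28 with overlapping groups. The insulin-like growth factor list rose in 6 of 9, with the binding protein Igfbp2 at 22.2, 29, 24.6 and 22 CPM in WT and 88.3, 180.3, 212 and 81.5 CPM in G93A mice, where G93A 10 and 11 were the highest. Of the prostaglandin and leukotriene list 7 of 17 rose, among them the thromboxane synthase Tbxas1 (7.79-fold) and Alox5, the first enzyme of leukotriene synthesis (4.56-fold), and the receptors Ptger2 and Ptger3 fell by 0.96 and 0.79, while 0 of the list passed as lower with the caudal Hox covariate or with 1 surrogate variable. The median of that list was 0.38 with the Hox covariate in place of 0.31. Of the immediate early genes 6 of 16 rose and 2 fell: Egr2, which also drives myelination by Schwann cells, was at 0.0746, 0.216, 0.0759 and 0.292 CPM in WT and 2.63, 4.71, 4.57 and 3.4 CPM in G93A mice, Fos rose 2.61-fold and Junb 2.74-fold, whereas Arc, a gene of active synapses, fell by 0.84 and Nr4a2 by 0.67. Of 38 genes that encode proteins of the study's cytokine array, 20 were tested, of which 16 rose and 0 fell. The rest were below the filter on low counts, so the count does not speak for the whole array. The array's proteins were not measured in these files.

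Of 18 circadian clock genes 5 passed as higher and 4 as lower, shares near the 21.3% and 18.2% of all genes, with a median of -0.01. Per1 was at 24.8, 21.5, 23.2 and 46.3 CPM in WT and 47.4, 37.1, 68.2 and 48.9 CPM in G93A mice, overlapping, and the output factor Hlf was lower by 0.53; the labels give no hour of sampling. In the perineuronal net list, the matrix that wraps fast-spiking and motor neurons, 4 rose and 5 of 11 fell: the link protein Hapln1 was at 26.7, 19.7, 26.8 and 15.2 CPM in WT and 11.6, 8.05, 9.14 and 13.2 CPM in G93A mice, while the glial tenascin Tnc rose. With the Hox covariate 2 passed as higher and 4 as lower, at a median of -0.35 in place of -0.06. Autophagy genes mostly did not pass (2 up and 3 down of 20), with the initiating kinase Ulk1 lower by 0.32. The covariate gave 1 up and 0 down (median -0.007 in place of 0.007). Of the astrocyte channel and junction list 4 of 10 rose, or 7 with the covariate (median 0.68 in place of 0.40). Of 10 ependymal genes 2 rose (Rarres2, 3.07-fold, and Foxj1, 1.3-fold with overlap), of 7 fibroblast genes 3, and of 7 Schwann cell genes 2 (Egr2 and Drp2, 1.32-fold). Of the 2 B cell genes tested Ighm fell by 0.46. Hox genes of cervical and thoracic position rose in 2 and fell in 3 of 15, and none passed with the covariate (median -0.13 in place of -0.02). Respiratory chain complexes II to IV had 2 rises and 4 falls among 26 genes, or 1 and 1 with it (median -0.10 in place of -0.17).

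Outside the lists lay 6609 of the 7378 called genes. Of the genes that follow, Apod, Ctsb, Clu, Trf and Fth1 are members of the lipid, cathepsin or iron lists and were counted there. Of the largest gains in CPM, Apod, a lipid-binding lipocalin, was at 546, 626, 643 and 558 CPM in WT and 1309.9, 1600.4, 3955 and 855 CPM in G93A mice, highest in G93A 11. Ctsb, a lysosomal cysteine protease, rose 3.35-fold, Clu, the chaperone clusterin, 3.31-fold and Trf, transferrin, 1.73-fold. Fth1, the ferritin heavy chain, passed by 0.38 on the log2 scale with overlapping groups. Of the largest losses beside the neurofilaments, Atp1b1, a sodium pump subunit, fell by 0.66 and Sparcl1 by 0.27. Ccn5, a matricellular protein, was at 0, 0.259, 0.0759 and 0.13 CPM in WT and 21.6, 18, 41.8 and 10.4 CPM in G93A mice, and Lilrb4a, an inhibitory receptor of myeloid cells, at 0.448, 0.0432, 0.152 and 0.195 CPM in WT and 17.6, 29.7, 26.1 and 14.8 CPM in G93A mice, both without overlap.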
